A study of Mus musculus with 16 samples.

Results

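The genes described here are 9 effectors and secreted hormones of the integrated stress response, the pathway in which phosphorylation of the translation factor eIF2 slows protein synthesis and raises translation of the transcription factor ATF4. They were chosen by name, as genes that act downstream of ATF4 or of its partner CHOP and are not themselves bZIP factors. They are Trib3, Nupr1, Vldlr, Stbd1, Stc2, Fgf21, Gdf15, Ppp1r15a and Ppp1r15b. Of the 9, 8 had a probe in the annotation used here, and these had 12 of the 25697 probes on each array, 5 of them for Vldlr. Gdf15 was read from a further probe, ILMN_2735350, which the study's own probe lists pair with that gene and the annotation does not list. Its values are given apart from the counts below.

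The arrays bear on how loss of ATF4 from muscle fibres changes mRNA levels in old age. Each array held quadriceps femoris RNA of 1 mouse, with 8 ATF4 mKO mice and 8 of their littermates as controls, and every mouse was a male of 22 months. All 16 mice carried 2 floxed Atf4 alleles (ATF4(L/L)). The ATF4 mKO mice also carried the MCK-Cre transgene (MCK-Cre(Tg/0)), whose promoter drives Cre in fibres of skeletal muscle and in heart, and the control mice did not (MCK-Cre(0/0)). Cells of the muscle other than fibres therefore kept Atf4, and an effect of the transgene itself cannot be told apart from that of the deletion.

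In cells under stress, ATF4 raises a set of genes that adjust metabolism, restrain the response and signal to other organs. TRIB3 is a pseudokinase that binds the kinase Akt and dampens ATF4 itself, and NUPR1 is a small nuclear protein that works with transcription factors. The products of Ppp1r15a and Ppp1r15b, known as GADD34 and CReP, bring a phosphatase to eIF2 and so end the response. FGF21 and GDF15 are hormones that stressed tissues release into blood, and stressed muscle is a known source of both.

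ATF4 mKO muscle had a lower mean signal of Nupr1, by 0.28 on the log2 scale, and the change of each of the other 11 probes lay between -0.03 and 0.09. With limma at an adjusted p of 0.1 or less, 0 of the 12 probes were called, where 0.136% of all 25697 probes were. At an unadjusted limma p under 0.05 the count was 1 of 12, where 5.62% of all probes passed, and by the two-tailed unpaired test that the study's methods name, at an unadjusted p of 0.025 or less, it was also 1 of 12, where 2.85% of all probes passed. That probe was Nupr1 in both cases. The genotypes did not separate without overlap at any of the 12 probes, and 0.101% of all probes did so. The median change of the 12 probes was 0.00193, beside 0.000468 over all probes. Because whole muscle was measured, fewer cells of a type and less RNA per cell cannot be told apart.

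**Figure D1:**
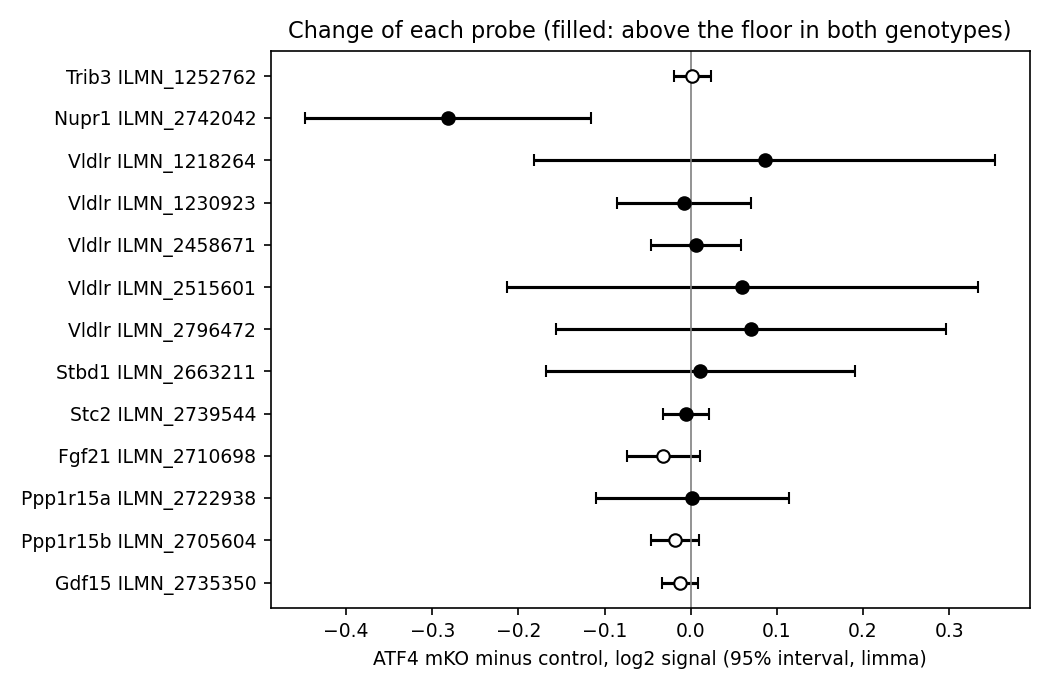
Change of each of the 13 probes, ATF4 mKO minus control, on the horizontal axis in log2 signal, with points for the limma estimate and bars for its 95% interval; filled points are probes above the floor of the arrays in both genotypes and open points are the others. The interval of Nupr1, -0.45 to -0.12, lies below 0, and all other intervals include 0.

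Signals on these arrays do not go down to 0. The lowest values of all arrays lie near a common floor, and a probe at the floor says only that its mRNA was not seen. The floor of an array was set here at the 95th percentile of its 1338 probes for olfactory, vomeronasal and bitter taste receptors, genes that muscle fibres are not known to express. It lay between 8.38 and 8.39 on the 16 arrays. A probe was called above the floor in a genotype where it exceeded the floor on more than 4 of 8 arrays, which 47.5% of all probes did in at least 1 genotype and 3.44% of the receptor probes did. Of the 12 probes, 9 were above the floor in both genotypes. They belonged to 5 genes, Nupr1, Vldlr, Stbd1, Ppp1r15a and Stc2. Trib3 and Fgf21 were at the floor in both genotypes, and Ppp1r15b lay across it.

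The DNA before 4 of the genes holds letters that ATF4 or related factors are known to bind. The composite element of ATF4 and its C/EBP partners was searched as TGATGNAA, and the cyclic AMP response element, a site of ATF and CREB factors, as TGACGTCA, on both strands of the windows from 250 bases before to 50 bases after each RefSeq start (assembly GRCm38.p6). Windows were held for 8 of the 9 genes, all but Ppp1r15b. The first motif was found for 4 of these 8 genes (Fgf21, Nupr1, Trib3 and Vldlr) (4 of their 10 windows), where 4.51% of the 27025 genes with a window and 3.97% of their 32851 windows hold it. The second was found for Ppp1r15a, where 2.03% of genes and 1.79% of windows hold it. The matches before a start are shown so that they can be read beside the array values of the 4 genes that hold them. The motif is in capitals, and TTGCATCA is the reverse complement of TGATGCAA, a form found in 0.895% of windows. The match of Trib3, TTACATCA, begins at base 15 after the start and is not shown further. A match is a description of the letters and does not show that a factor binds there.
Nupr1 (GRCm38.p6 chr7:126625547-126625606, minus strand, motif 110 bases before the start): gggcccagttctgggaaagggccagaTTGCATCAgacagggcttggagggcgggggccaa
Vldlr (GRCm38.p6 chr19:27216794-27216853, plus strand, motif 200 bases before 1 of 2 starts): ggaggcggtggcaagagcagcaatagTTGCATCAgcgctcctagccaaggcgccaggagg
Fgf21 (GRCm38.p6 chr7:45615596-45615655, minus strand, motif 139 bases before the start): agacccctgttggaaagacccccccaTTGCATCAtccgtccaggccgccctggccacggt
Ppp1r15a (GRCm38.p6 chr7:45526269-45526306, minus strand, motif 12 bases before the start): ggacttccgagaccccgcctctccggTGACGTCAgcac

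Nupr1 was the member with the largest difference. In control mice its log2 signal ran from 9.32 through a median of 9.60 to 10.0, and in ATF4 mKO mice from 9.21 through 9.27 to 9.55. All 8 ATF4 mKO mice were below the control mean, which held for 2.00% of all probes, and 5 of them were below the lowest control mouse. The groups overlapped, since control mice 3 (9.36) and 7 (9.32) fell among the ATF4 mKO mice and ATF4 mKO mouse 3 (9.55) stood among the controls. The control mean was 9.58 ± 0.21 (SD, n = 8) and the ATF4 mKO mean 9.30 ± 0.11 (SD, n = 8), which differ by -0.28 ± 0.08 (S.E.; 95% interval -0.45 to -0.12), a ratio of 0.823. The unadjusted limma p was 0.00247, place 114 among all probes, and the adjusted p was 0.555, so the difference did not pass across the table.

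The size of the Nupr1 difference moved with single mice, and its side of the threshold did not. Without control mouse 5, the highest, it was -0.22, and without control mouse 7 it was -0.32 (limma, adjusted p = 0.271, the lowest of the 16 fits that each leave out 1 array). Leaving out control mice 3 and 7 together, which earlier results of these data had set apart from the other controls and which are also the lowest of the control group for Nupr1, gave -0.36 (limma, adjusted p = 0.110). ATF4 mKO mouse 3 also had the highest mean signal of 8 leukocyte markers, 8.89 where the other ATF4 mKO mice had 8.51 to 8.60 and the control mice 8.53 to 8.73. Without that mouse the Nupr1 difference was -0.32 (limma, adjusted p = 0.307). Among the ATF4 mKO mice Nupr1 and the leukocyte markers had an r of 0.924 (n = 8, exact permutation p = 0.0117, adjusted p = 0.181 over 110 relations of members with marker lists) and of 0.424 without the 2 mice farthest from the median of Nupr1. Among the control mice Nupr1 and the adipocyte markers had an r of 0.857 (n = 8, exact permutation p = 0.00454, adjusted p = 0.128) and of 0.480 without the 2 mice. In the other genotype the r was 0.540 for the leukocyte markers (control mice) and 0.623 for the adipocyte markers (ATF4 mKO mice). Control mouse 5 had the highest adipocyte marker mean of its group (9.22), and control mice 3 and 7 the lowest (8.66 and 8.65). Neither list had the lowest adjusted p of the 110 relations, 0.0900 by exact permutation. That value belonged to Nupr1 with the muscle fibre markers in control mice (r = 0.814) and with the fibroblast markers in ATF4 mKO mice (r = 0.850). The part of any cell type in the Nupr1 signal was not tested.

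**Figure D2:**
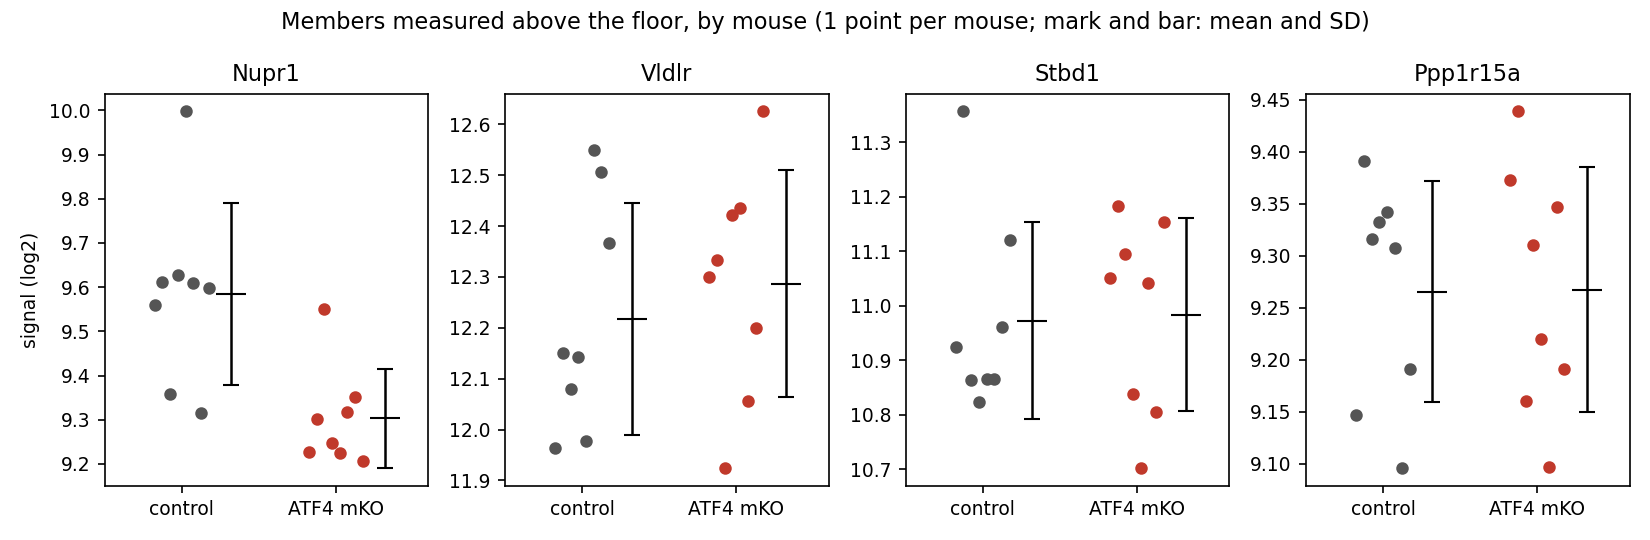
Log2 signal on the vertical axis for the 4 brightest members above the floor, Vldlr by its probe ILMN_2796472, with 1 point per mouse and a mark and bar for the mean and SD of 8 mice per genotype; each panel has its own axis, which does not start at 0. For Nupr1, 5 of 8 ATF4 mKO mice lie below the lowest control mouse at 9.32, and for Vldlr, Stbd1 and Ppp1r15a the genotypes cover much the same range.

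Vldlr, the receptor for lipoproteins of very low density, takes up triglyceride-rich particles in muscle, heart and fat. All 5 of its probes were above the floor on all 16 arrays. On ILMN_2796472 the control mice ran from 11.96 through a median of 12.15 to 12.55 and the ATF4 mKO mice from 11.92 through 12.32 to 12.63. The control mean was 12.22 ± 0.23 (SD, n = 8) and the ATF4 mKO mean 12.29 ± 0.22 (SD, n = 8), and the difference of 0.07 ± 0.11 (S.E.; 95% interval -0.16 to 0.30) did not pass (limma, adjusted p = 0.979). The other probes gave 0.09, 0.06, 0.00576 and -0.00759. The interval of ILMN_2796472 does not include a fall as large as that of Nupr1, and the interval of ILMN_1218264, -0.18 to 0.35, does not either.

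Vldlr instead varied from mouse to mouse within a genotype. The SD within genotypes of its probes ILMN_1218264, ILMN_2515601 and ILMN_2796472 was 0.27, 0.27 and 0.23, above that of at least 98.4% of the 12196 probes above the floor, whose median SD was 0.05. The probes moved together. Over the 16 mice, the deviations from the genotype mean correlated between 0.729 and 0.974 for the 10 pairs of the 5 probes, which share the gene and the arrays, so this is given with no test. Control mice 6 to 8 had 12.20 to 12.32 on ILMN_1218264, above the 11.68 to 11.86 of control mice 1 to 5. This split was drawn after these values had been seen and is given with no test, and the labels name no batch. The same mice were apart on ILMN_2515601 (12.23 to 12.29 against 11.66 to 11.93) and ILMN_2796472 (12.37 to 12.55 against 11.96 to 12.15). They overlapped on the dimmer probes ILMN_1230923 (8.63 to 8.74 against 8.55 to 8.67) and ILMN_2458671 (8.468 to 8.591 against 8.458 to 8.503). The ATF4 mKO mice ran from 11.60 to 12.47 on ILMN_1218264.

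**Figure D3:**
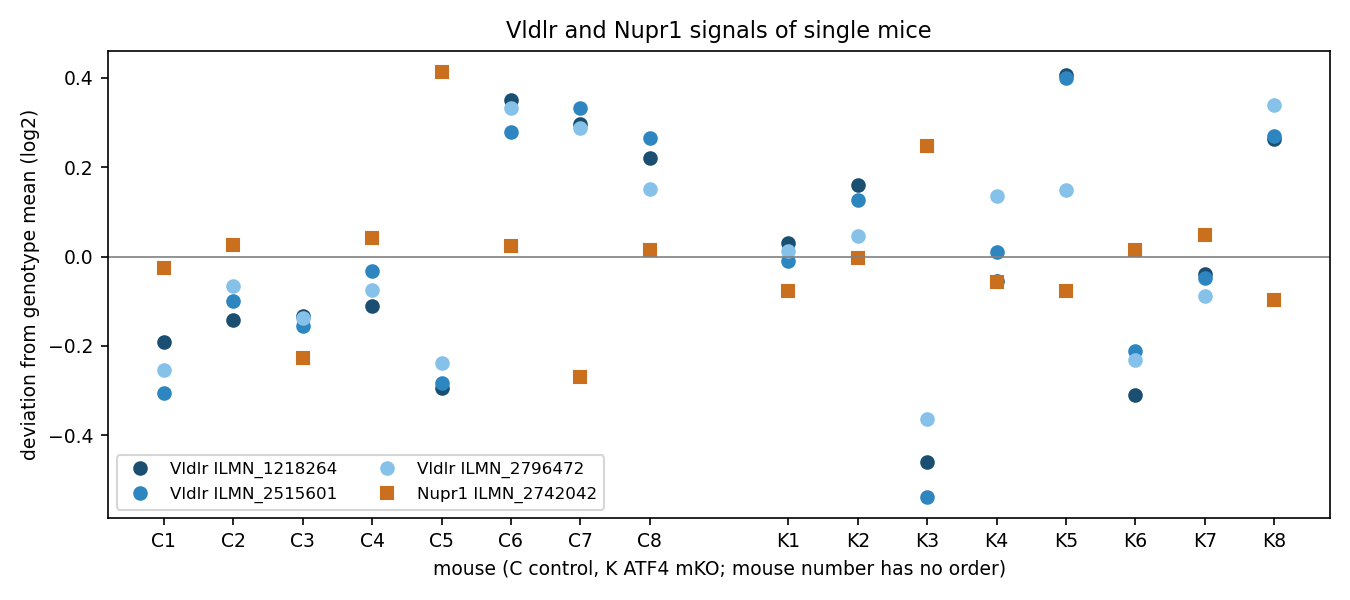
Deviation of each mouse from the mean of its genotype, in log2 signal, for 3 probes of Vldlr (blue circles) and for Nupr1 (orange squares), with 8 control mice on the left and 8 ATF4 mKO mice on the right. The 3 Vldlr probes rise and fall together across the mice, and ATF4 mKO mouse 3, with the highest Nupr1 signal of its genotype (9.55), has the lowest Vldlr signals.

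Nupr1 and Vldlr ran opposite to each other among the ATF4 mKO mice. Of 20 relations between the 5 members above the floor (10 pairs in each genotype, brightest probe of each gene), this was the 1 with an adjusted p of 0.05 or less. Its Pearson r was -0.855 (n = 8, exact permutation p = 0.00206, adjusted p = 0.0412) and its Spearman rho -0.905 (exact permutation p = 0.00456, adjusted p = 0.0913). Without the 2 mice farthest from the median of Nupr1 the r was -0.805 (n = 6, exact permutation p = 0.0319, adjusted p = 0.213), which no longer passed. In control mice the r was -0.405 (n = 8, exact permutation p = 0.339, adjusted p = 0.753) and the rho -0.190, and without the 2 mice farthest from the median of Nupr1 the r was 0.382, of the opposite sign. Whether it differs between the genotypes was not tested. In the same 8 ATF4 mKO mice the leukocyte markers had an r of 0.924 with Nupr1 and of -0.777 with Vldlr. The fibroblast markers had 0.850 and -0.782, and none of these had an adjusted p of 0.05 or less. The part of cell types in the relation of Nupr1 and Vldlr was not tested.

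Stbd1 encodes a protein that binds glycogen and anchors it to membranes, and it was measured well above the floor. The control mice ran from 10.82 through a median of 10.89 to 11.36 and the ATF4 mKO mice from 10.70 through 11.05 to 11.18. Control mouse 2 was the highest of all and ATF4 mKO mouse 5 the lowest, and the groups overlapped throughout. The control mean was 10.97 ± 0.18 and the ATF4 mKO mean 10.98 ± 0.18 (SD, n = 8), and their difference was 0.01 ± 0.08 (S.E.; 95% interval -0.17 to 0.19; limma, adjusted p = 0.998).

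The subunits that direct the phosphatase to eIF2 gave no call. Ppp1r15a, the subunit that stress induces, ran from 9.10 through a median of 9.31 to 9.39 in control mice and from 9.10 through 9.27 to 9.44 in ATF4 mKO mice. Both groups covered the same range. Its difference was 0.00184 ± 0.05 (S.E.; 95% interval -0.11 to 0.11; limma, adjusted p = 1.00). Ppp1r15b, the constitutive subunit, had a mean of 8.40 ± 0.03 (SD, n = 8) in control muscle and 8.38 ± 0.03 (SD, n = 8) without ATF4, and exceeded the floor on 4 of 8 control and 5 of 8 ATF4 mKO arrays. Its difference of -0.02 ± 0.01 (S.E.; limma, adjusted p = 0.924) lay at a level where changes are compressed.

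Among the secreted members, Stc2 was the 1 above the floor on all 16 arrays, and it was no longer above it with either stricter floor (a mean signal of 8.5, or the 99th percentile of the receptor probes). Stanniocalcin-2, its product, is a glycoprotein that blocks a protease of the IGF-binding proteins. Stc2 lay just above the floor, from 8.40 through a median of 8.44 to 8.47 in control and from 8.40 through 8.43 to 8.48 in ATF4 mKO mice. The genotypes covered the same range, and the difference was -0.00580 ± 0.01 (S.E.; 95% interval -0.03 to 0.02; limma, adjusted p = 0.987).

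Fgf21, the hormone that signals through the co-receptor beta-Klotho, was at the floor in most mice of both genotypes. It exceeded the floor on 3 of 8 control and 1 of 8 ATF4 mKO arrays. Control values ran from 8.33 through a median of 8.37 to 8.48, with control mouse 2 the highest, and ATF4 mKO values from 8.31 through 8.35 to 8.41. The difference of -0.03 ± 0.02 (S.E.; 95% interval -0.07 to 0.01) did not pass (limma, adjusted p = 0.902), and a fall from so low a level could hardly have shown.

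Gdf15, the hormone whose receptor GFRAL is found in the hindbrain, was at the floor too on the probe that the study's lists give it. It exceeded the floor on 1 of 8 control arrays, that of control mouse 2 (8.40), and on 0 of 8 ATF4 mKO arrays. Its means were 8.34 ± 0.02 and 8.33 ± 0.01 (SD, n = 8; limma, adjusted p = 0.931). Trib3 exceeded the floor on 0 of 16 arrays, with a control mean of 8.34 ± 0.01 (SD, n = 8), an ATF4 mKO mean of 8.34 ± 0.02 (SD, n = 8) and 0.00202 ± 0.00990 between them (S.E.; limma, adjusted p = 0.997). For Trib3, Fgf21 and Gdf15 the arrays therefore do not show whether the mRNA depends on ATF4 in this muscle.

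**Figure D4:**
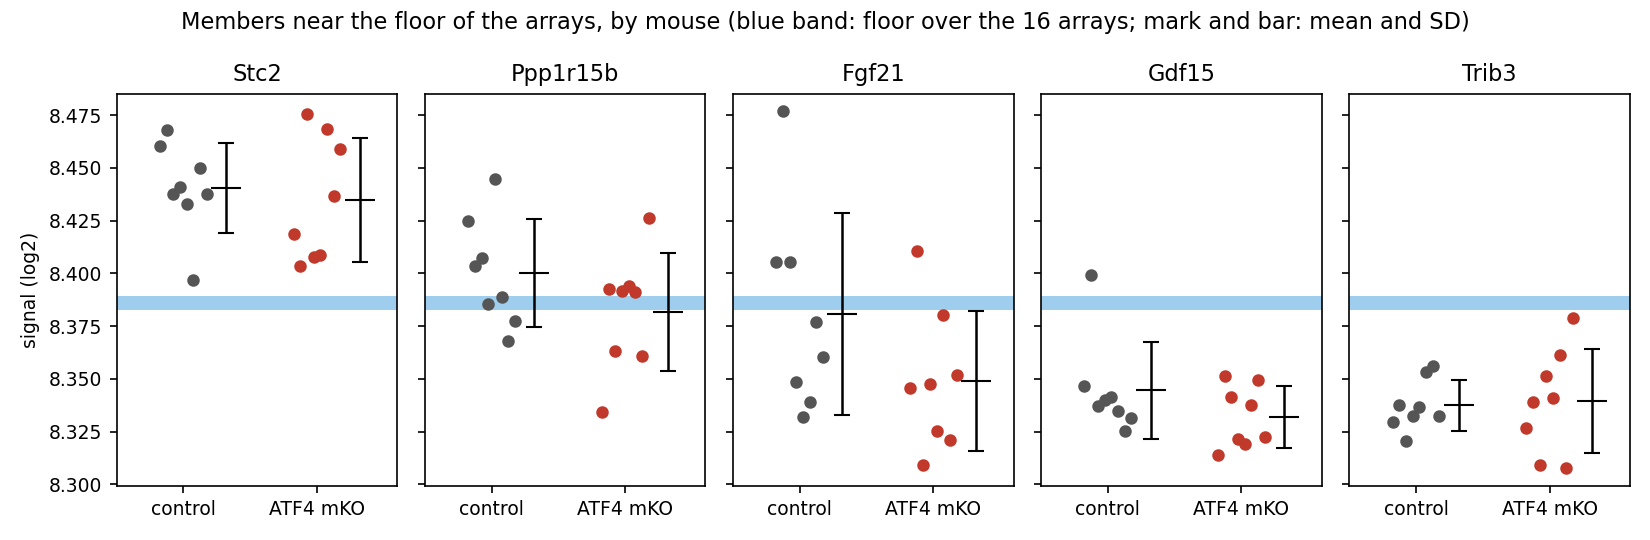
Log2 signal on a common vertical axis for the 5 members near the floor, with 1 point per mouse, a mark and bar for the mean and SD of 8 mice per genotype, and a blue band for the floor over the 16 arrays (8.38 to 8.39). Stc2 lies above the band in every mouse, Trib3 in none, and Gdf15 in 1 control mouse.

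Other genes of the pathway fell. The Atf4 signal itself went from 10.45 ± 0.12 to 8.52 ± 0.05 (SD, n = 8; limma, adjusted p = 1.26e-13). Lists were made of the kinases, eIF2 subunits, bZIP factors, metabolic targets and genes around the members. They held 95 genes other than the members, measured by their brightest probe. In the counts that follow, a gene fell or rose where limma called it at an adjusted p of 0.1 or less. Of the 95 genes, 8 fell and 0 rose. Over all genes 0.108% fell and 0.0422% rose. The count of 8 includes Atf4, the deleted gene, whose fall was set by the design. The 8 were Atf4, Atf5, Eif2s2, Slc6a9, Slc7a5, Aldh18a1, Mthfd2 and Herpud1, with changes from -0.08 for Mthfd2, a mitochondrial folate enzyme, to -1.01 for Atf5, a bZIP factor, beside -1.93 for Atf4. The study names several of them as reduced in these samples, so they are not independent evidence. Mthfd2 exceeded the floor on 8 of 8 control and 1 of 8 ATF4 mKO arrays, so its signal fell to the floor. The ATF4 mKO means of Aldh18a1 (8.41) and Slc7a5 (8.48) were near it too, where changes are compressed. Of 10 bZIP and related factors 2 fell, and the rest included Cebpg, a partner of ATF4 (-0.03; limma, adjusted p = 0.834). CHOP is encoded by Ddit3, which was above the floor on all 16 arrays and gave -0.00532 and 0.02 on its probes. Of 10 kinases and subunits of eIF2 and eIF2B, 1 fell, and Eif2b5 gave -0.12 (limma, adjusted p = 0.173), -0.07 and, on its brightest probe, 0.00825. Of 22 metabolic targets of ATF4 5 fell, and their median change was -0.04. Of 7 genes listed as CHOP targets, members included, 0 passed, and their median change was 0.00184.

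The 7 lists of genes around the members gave 0 calls. Over all genes 0.151% were called, a share at which lists this short mostly hold none. The lists hold binding partners, regulators and genes of the same process. Some of their genes were at the floor, where a change could hardly show. These were 6 of the 11 genes around FGF21 and GDF15 and 3 of the 7 around Trib3. The lists of the phosphatase and of the genes around Nupr1, Trib3 and Stc2 hold members as well, and the other 3 do not. The 7 genes of the eIF2 phosphatase had a median change of -0.00423, and Ppp1ca, its catalytic subunit, gave -0.08, 0.00496 and 0.02. Of 5 genes around Nupr1, the cell cycle inhibitor Cdkn1a gave -0.30, -0.19 and -0.11 on its probes (limma, lowest adjusted p = 0.841), and the coactivator Ep300 gave 0.08. Of 7 genes around Trib3, Akt2 gave -0.02 on its probe with the smallest p, which was at the floor on all 16 arrays, and -0.01 on its brightest (limma, adjusted p = 0.986), and Acaca, which makes malonyl-CoA, 0.15 (adjusted p = 0.925). Among 11 receptor and response genes of FGF21 and GDF15, Gfral was at the floor on all 16 arrays, Klb, which encodes beta-Klotho, on all but 2, and Ppargc1a, a coactivator of mitochondrial genes, gave 0.14 (adjusted p = 0.912). Of 9 genes around Vldlr, Lpl, the lipase that feeds the receptor, gave -0.08. Of 10 glycogen genes, Epm2a, the glycogen phosphatase laforin, gave 0.05 (adjusted p = 0.834) and Gaa, the lysosomal glucosidase, -0.06. Of 4 genes around Stc2, Igfbp4 gave -0.09 and Stc1 was at the floor.

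The genes whose signals followed each member most closely from mouse to mouse were found by the Pearson r of deviations from the genotype means over 16 mice, among 7177 other genes above the floor on every array. They were picked as the highest of many and are given with no test. For Nupr1 they were Ccn1, a matricellular protein (r = 0.897, rho = 0.809), Cotl1, which binds actin (0.857, rho = 0.550), and Cavin3, a coat protein of caveolae (0.856, rho = 0.750). For Vldlr they were Foxn3, a forkhead factor (0.927), Smim19 (0.925) and Hoxc10, a homeobox factor (0.913). For Stc2 they were Tor4a (0.814), Trafd1 (0.811) and Gadd45a (0.801), which is known to promote muscle atrophy. Within genotypes, Stc2 and Gadd45a had an r of 0.777 among control mice and of 0.824 among ATF4 mKO mice. Tor4a had 0.710 and 0.901, and Trafd1 0.961 and 0.723. Stc2 lay just above the floor, with an SD within genotypes of 0.03, so these are relations of a signal near the floor. For Stbd1 the closest were Parm1 (0.799), Cct6a, a chaperonin subunit (0.793), and Sh3gl1 (0.762), and for Ppp1r15a they were Sbf1 (0.808), Aagab (0.793) and Catsper4 (0.775). None of these 15 genes was called between the genotypes.

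Markers of cell types were compared by genotype to show what else was in the samples. All 9 markers of muscle fibres were above the floor, with a mean of 14.62 to 14.77 in control and 14.63 to 14.78 in ATF4 mKO mice. Of 11 marker lists 0 differed between the genotypes (exact permutation, lowest unadjusted p = 0.199, lowest adjusted p = 0.859). Among the 8 leukocyte markers Ptprc and Cd3e were at the floor, and among the 7 adipocyte markers Plin1, Fabp4 and Retn. Of the 3 satellite cell markers Pax7 and Myf5 were at the floor, and of the 4 heart markers Nppa, Nppb and Tnni3. The satellite cell and heart lists could therefore hardly show a difference. Kdr, S100b, Chrnd, Ier2 and Btg2 of other lists were at the floor too. The slow fibre list had the largest difference, -0.24, with 11.18 to 12.05 in control and 10.70 to 11.98 in ATF4 mKO mice (exact permutation p = 0.240, adjusted p = 0.859).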

How the data were processed

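Per the study's methods, Illumina Mouse Ref-8 bead arrays were hybridised and read out in BeadStudio. The values are the log2 signals per probe deposited by the authors as 1 table, and their background correction, transformation and normalization were not given in the sources used here. Array medians lay between 8.378 and 8.381, arrays correlated between 0.994 and 0.998, and no detection p-value was used. The number of arrays limits the precision. Each probe was fitted as ATF4 mKO against control by lmFit and eBayes (limma 3.58.1 under R 4.3.3), p being adjusted by Benjamini and Hochberg over 25697 probes. Relations used all 40320 pairings and marker lists all 12870 arrangements of mice (Python 3.11.15, SciPy 1.17.1). The fit was tested on simulated data, with independent normal noise per probe and changes added to brighter probes only. That test says nothing of changes near the floor. Genes are named from the platform annotation.

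Members, lists and tests were chosen with earlier results of these data known. Every probe of a member is reported. From each other list the text names called genes and up to 3 genes by smallest p. Ddit3, Eif4ebp1, Klb, Gfral, Lpl, Stc1 and the members of marker lists at the floor were partly named for their role after their values were seen. Lists were counted by the brightest probe of each gene. Alternatives were quantile normalization, median centring, leaving out dimmer probes, leaving out each array, weights per array, a replicate block by mouse number, the methods' t-test, another variance prior, other thresholds (0.05 and 0.2), other floors, a mean over the probes of each gene, TGATGCAA as the motif, and leaving out control mice 3 and 7. The files name no slide and hold no scanner values, so those alternatives were not run.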

Additional observations from a re-analysis of the deposited data

Results flagged for a closer look

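In 5 of 48 groups of 8 mice, formed by probe or marker list and genotype, 1 mouse stood apart from the rest by the size of its gap to the nearest mouse. Chance gives about 1 in 20 such groups. Nupr1 was 10.0 in control mouse 5, with the next mouse at 9.63, and 9.55 in ATF4 mKO mouse 3, with the next at 9.35. The Gdf15 probe was 8.40 in control mouse 2, with the next at 8.35. The leukocyte markers had a mean of 8.89 in ATF4 mKO mouse 3, with the next at 8.60, and the endothelial markers a mean of 9.19 in ATF4 mKO mouse 7, with the next at 9.09.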

How the results depend on the processing

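The count of called members was 0 in every setting run but the methods' t-test at an unadjusted p of 0.025. There it was 1 of 12 (Nupr1, -0.28, unadjusted p = 0.00441). Not every setting held all 12 probes. Leaving out dimmer probes removed those of Trib3 and Fgf21, and the mean over probes gave 1 value per gene. The Nupr1 change stayed negative in all fits, from -0.32 to -0.22 without 1 array, with an adjusted limma p of 0.271 to 0.787. The count of members was 0 to 0 without 1 array. Mouse number as a replicate block gave Nupr1 an adjusted p of 0.786 and left 2 of the 8 falls among the other pathway genes. The labels do not say whether equal numbers pair the mice. Deviations from the genotype means correlated above 0.1 in 2 of 8 same-numbered pairs, which cannot exclude a pairing. The falls among the other pathway genes numbered 7 to 9 without 1 array and the rises 0 to 0. The t-test at 0.025 gave 12 falls and 1 rise, and leaving out control mice 3 and 7 gave 6 falls. Signs near 0 turned. Ppp1r15a was -0.000317 after quantile normalization, -0.000907 with array weights and -0.0180 without control mice 3 and 7, where Stbd1 was -0.00891 and Vldlr ILMN_1230923 0.0167. Without 1 array, Trib3 ranged from -0.00363 to 0.00654, Vldlr ILMN_1230923 from -0.0265 to 0.00806, Vldlr ILMN_2458671 from -0.00866 to 0.0178, Stbd1 from -0.0174 to 0.0658 and Ppp1r15a from -0.0227 to 0.0262. The relation of Nupr1 and Vldlr left 0 calls without the 2 outer mice. With a floor at a mean of 8.5 or at the 99th percentile of the receptor probes, 8 of 12 probes were above it, and the probe lost was that of Stc2. The cause of these shifts was not tested. Signals at the floor limit what can be said of Trib3, Fgf21, Gdf15, Ppp1r15b and Stc2.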

Other observations

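The 5 members above the floor were set against the 11 marker lists within each genotype, which makes 110 relations of 8 mice and was done after the values had been seen. By exact permutation, 0 of the 110 had an adjusted p of 0.05 or less, and the lowest was 0.0900. That value belonged to Nupr1 with the muscle fibre markers in control mice (r = 0.814, rho = 0.810, exact permutation p = 0.00107; r = 0.619 without the 2 mice farthest from the median of Nupr1) and to Nupr1 with the fibroblast markers in ATF4 mKO mice (r = 0.850, rho = 0.881, exact permutation p = 0.00164; r = 0.619 without the 2 mice). In the other genotype Nupr1 had an r of -0.0636 with the muscle fibre markers (ATF4 mKO mice) and of 0.582 with the fibroblast markers (control mice). The next lowest adjusted p, 0.128, belonged to Nupr1 with the adipocyte markers in control mice (r = 0.857, rho = 0.738, exact permutation p = 0.00454) and to Vldlr with the leukocyte markers in ATF4 mKO mice. Vldlr ran opposite to the leukocyte markers in ATF4 mKO mice (r = -0.777, rho = -0.929, exact permutation p = 0.00464, adjusted p = 0.128; r = -0.827 without the 2 mice farthest from the median of Vldlr).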
